A study of Mus musculus with 4 samples.

Results

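Cochlear hair cells come as outer and inner hair cells, and 7 genes that tell these subtypes apart were followed through all replicates of the experiment. The outer hair cell genes were Slc26a5, Ikzf2, Insm1, Strc and Bcl11b, and the inner hair cell genes were Fgf8 and Tbx2. They were taken by gene symbol from the deposited tables, which list 23420 genes, and all 7 were found. All 7 also had enough reads to be tested together with 16077 genes in total, after genes with fewer than 100 reads over the 12 replicates were left out.

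RNA was sequenced from sorted cochlear cells of Atoh1-GFP mice of the CD1 strain, in which an Atoh1 enhancer drives GFP mainly in hair cells. Every cochlea was dissected on postnatal day 1 and cultured overnight at low oxygen in medium with penicillin, so both control groups carry this culture step as well. The cultures of the treated groups then received 0.5 mM gentamicin, an aminoglycoside antibiotic that is toxic to hair cells, for 3 h, and the other cultures received no gentamicin. Dissociated cells were sorted into GFP positive cells, called hair cells here, and GFP negative cells, called non-hair cells, with cells of low GFP gated out. This gave 4 groups (hair cells and non-hair cells, each as control and after gentamicin) with 3 replicates in each. The non-hair cells are a mixture of supporting cells, greater and lesser epithelial ridge cells and surrounding tissue. The hair cells were not sorted by subtype, so each hair cell replicate pools outer and inner hair cells, and a lower level of a gene can mean fewer cells that express it or less RNA per cell, which cannot be told apart. The study calls the replicates biological, but the number of animals behind each one is not given in the sources used here, nor is it given which libraries shared a sequencing lane.

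Outer hair cells amplify sound by changing their length, and inner hair cells pass the signal to the auditory nerve. Slc26a5 encodes prestin, the motor protein of outer hair cell length changes. Strc encodes stereocilin, an extracellular protein of the outer hair cell bundle that holds stereocilia together and fixes the tallest ones to the tectorial membrane. A set of zinc finger transcription factors are the other outer hair cell genes: Insm1 acts early and keeps nascent outer hair cells from taking an inner hair cell character, Ikzf2 (helios) drives outer hair cell gene expression during maturation, and Bcl11b (also named Ctip2) is a nuclear marker of outer hair cells. Fgf8 is a growth factor that inner hair cells secrete and that acts on Fgfr3 of the neighbouring pillar cells. Tbx2 is a T-box transcription factor needed for the inner hair cell fate, and it is also expressed by other cells of the cochlear epithelium.

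Slc26a5 and Strc are structural products of outer hair cells, and their promoters are shown because both genes were nearly without reads outside the hair cell gate. RefSeq promoter sequences on the GRCm38.p6 build, which run from 250 bases before to 50 bases after a gene's start, were at hand for 3 of the 7 genes. The Slc26a5 promoter lies at chr5:21865555-21865854 and the Strc promoter at chr2:121380891-121381190, both on the minus strand and both 300 bases long. The Slc26a5 window holds the start of the GENCODE M21 gene given below, whereas the RefSeq start behind the Strc window lies inside the longer GENCODE M21 gene, whose own start is at 121387168. Capitals mark matches on either strand to the E-box CANNTG, the T-box core AGGTGT, the Ikaros core TGGGAA or the TATA box TATAAA. The first capital run of Slc26a5 is the reverse strand of the Ikaros core, and its second is an E-box.
Slc26a5: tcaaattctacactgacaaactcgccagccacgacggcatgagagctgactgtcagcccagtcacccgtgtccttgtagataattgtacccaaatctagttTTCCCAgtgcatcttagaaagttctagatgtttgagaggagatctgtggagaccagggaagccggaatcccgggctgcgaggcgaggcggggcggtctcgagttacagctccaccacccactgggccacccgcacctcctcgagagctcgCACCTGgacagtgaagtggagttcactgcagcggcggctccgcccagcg
Strc: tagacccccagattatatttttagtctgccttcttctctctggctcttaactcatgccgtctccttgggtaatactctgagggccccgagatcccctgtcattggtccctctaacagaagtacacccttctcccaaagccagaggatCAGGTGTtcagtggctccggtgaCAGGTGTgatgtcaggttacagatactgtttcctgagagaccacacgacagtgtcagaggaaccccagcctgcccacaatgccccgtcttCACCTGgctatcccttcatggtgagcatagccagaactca
In Strc, both runs that read CAGGTGT are an E-box and a T-box core that overlap, and the last run is a further E-box. The Bcl11b promoter at chr12:108003365-108003664 held 1 TATA box and no match to the other motifs. E-boxes are common and were found in 72.3% of the 32851 promoters of this length, against 13.7% for the T-box core, 25.6% for the Ikaros core and 13.6% for the TATA box. A match in these windows describes letters and not binding. The base composition of these windows differed, with 58.0% G and C in Slc26a5, 52.3% in Strc and 43.0% in Bcl11b, against a median of 52.7% over all promoters of this length.

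Between 22.4 M and 28.2 M reads on genes were recovered per replicate from the deposited scores, which are read numbers scaled per replicate with 1 added, so that a value of 1 means no reads. These scores are called normalized read numbers below, and where replicates are summarised the mean and SD of 3 are shown. A change on this scale understates that of genes with few reads, since 1 is added before the logarithm. At this depth 1 read adds between 0.0352 and 0.0461 to a normalized read number. Log2 changes come from limma on log2 normalized read numbers, with all 4 groups in 1 model and two-sided tests, and adjusted p-values are Benjamini-Hochberg values over the 16077 genes. A response to gentamicin was called at an unadjusted p below 0.01 with a fold change above 1.2, which are the study's criteria. The sort was visible in marker genes: 8 of 8 hair cell markers were higher in control hair cells than in control non-hair cells, and 7 of 7 mesenchyme, 5 of 5 endothelial, 4 of 4 tested Schwann cell and melanocyte and 4 of 4 tested immune cell markers were lower. Supporting cell and neuron markers were not depleted in the hair cell gate in the same way. Of 10 supporting cell markers, 3 were higher and 1 was lower in control hair cells and 6 were not called (median log2 difference 0.46), and of 7 neuron markers 2 were lower and 5 were not called.

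Of the 7 genes, 6 were higher in control hair cells than in control non-hair cells and Ikzf2 was lower, at an adjusted p below 0.05 with a fold change above 1.2. Among all genes tested, 30.2% were higher and 40.9% were lower in hair cells by the same rule. The outer and inner hair cell names could not be checked against each other in cells that were not sorted by subtype, and the gene that was not higher within the hair cell gate was Ikzf2.

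Slc26a5 (chr5:21810655-21865604, minus strand, GENCODE M21 on mm10) was measured at 22.2, 31.5 and 28.2 normalized reads in the 3 replicates of control hair cells, and at 1.00, 1.04 and 1.00 in those of control non-hair cells. The control non-hair cells held 1 read of prestin in all, against 1792 reads in the control hair cells, a ratio of 1947 after division by library size with an exact 95% interval from 349 to 76931 that covers counting error only. Strc (chr2:121363728-121387168, minus strand) had 1174, 1273 and 1193 in control hair cells and 1.17, 1.08 and 1.23 in control non-hair cells. Its 82626 against 12 reads gave a ratio of 7480 (exact 95% interval 4282 to 14476). Exons of Strc overlap those of Ckmt1 on the opposite strand, and whether the counting used strand is not given in the sources used here, although Ckmt1 did not exceed a normalized read number of 172 in any replicate.

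Fgf8 (chr19:45736798-45742915, minus strand) was also almost limited to the hair cell gate, with 94.6, 84.5 and 101 in control hair cells against 1.00, 1.04 and 1.04. That is 6283 against 2 reads, a ratio of 3413 (exact 95% interval 944 to 28185). These groups lie far apart for all 3 genes, and their low group sits at the floor of the measurement.

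Insm1 (chr2:146221921-146225020, plus strand) had 98.9, 90.3 and 88.4 in control hair cells against 1.71, 3.11 and 2.91 in non-hair cells of the same treatment, where it was measured with 17.2 to 53.2 reads per replicate. Its log2 difference was 5.21 (standard error 0.27, limma adjusted p = 1.17e-08). Bcl11b (chr12:107910403-108003602, minus strand) had 84.4, 79.7 and 74.3 against a mean of 8.36 ± 0.220 (SD, n = 3), a log2 difference of 3.25 (standard error 0.12, limma adjusted p = 9.12e-10). Both transcription factors were measured above the floor in non-hair cells, unlike Slc26a5, Strc and Fgf8.

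Tbx2 (chr11:85832551-85841948, plus strand) differed less between the sorted populations than any other of the 6 genes that were higher in hair cells. It had 396, 373 and 447 in control hair cells and 135, 160 and 174 in the control non-hair cell group, for a log2 difference of 1.38 (standard error 0.25, limma adjusted p = 3.26e-04). These 2 groups do not overlap, and the non-hair cells still held 11725 reads of Tbx2.

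Ikzf2 (chr1:69531214-69687245, minus strand) had 14.0, 17.8 and 18.5 in control hair cells and 22.3, 24.3 and 23.4 in control non-hair cells. Every non-hair cell replicate was above every hair cell replicate, and the log2 difference was -0.49 (standard error 0.16, 95% interval -0.84 to -0.13, limma adjusted p = 0.0171). The call was lost without replicate 1 of the control hair cells (limma adjusted p = 0.0797) and without replicate 2 of the control non-hair cells (limma adjusted p = 0.0507). Exons of Ikzf2 overlap those of Gm29114, an antisense gene, so reads of the pair cannot be told apart without strand.

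**Figure D1:**
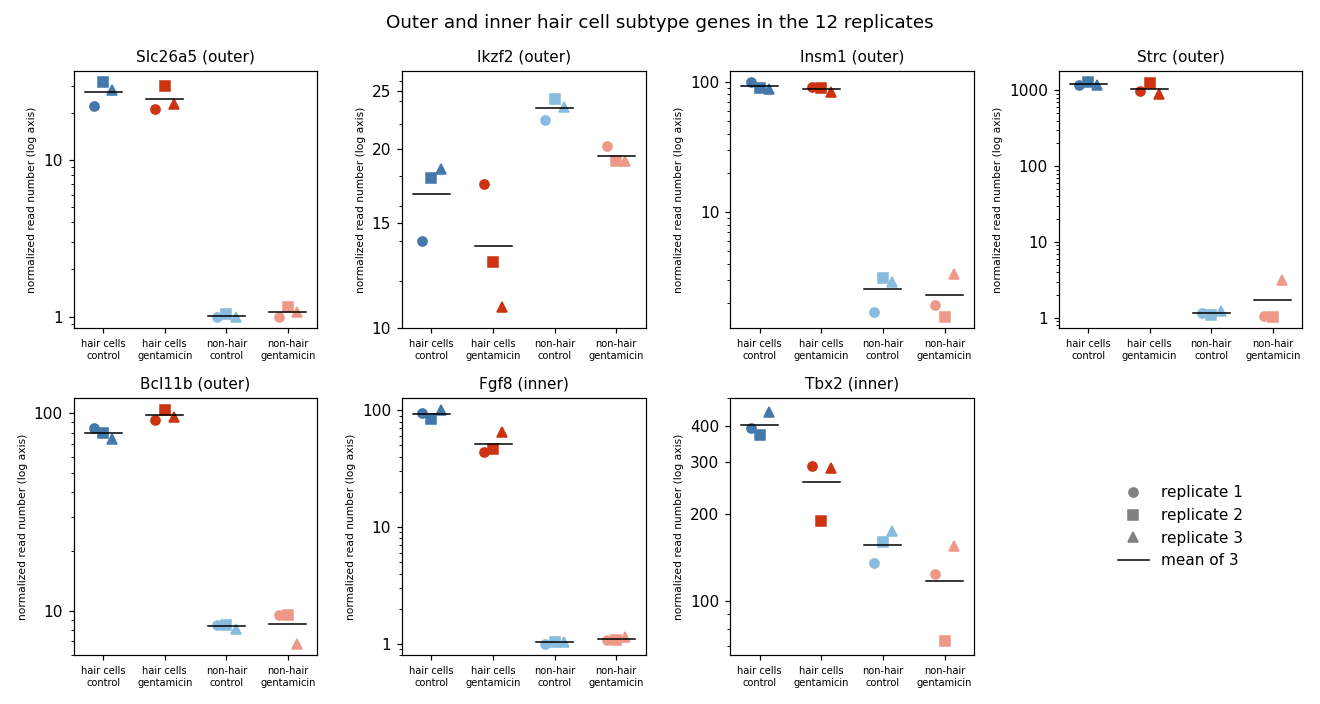
Normalized read number (log axis) of the 7 genes in hair cells and non-hair cells, as control and after gentamicin, with 1 symbol per replicate and a line at the mean of 3. Slc26a5, Strc and Fgf8 sit near 1, the value of no reads, in non-hair cells, except for Strc in treated replicate 3 (3.11). Ikzf2 lies higher in non-hair cells. In hair cells the gentamicin replicates of Fgf8 (44.4 to 65.1) lie below its controls (84.5 to 101).

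To compare levels between genes, recovered reads were divided by the length of the exons and by the reads of the replicate, which gives RPKM values. Control hair cells had RPKM values of 189 ± 8.60 (SD, n = 3) for Strc, 108 ± 9.95 for Tbx2, 66.4 ± 5.96 for Fgf8 and 28.6 ± 1.73 for Insm1. Bcl11b with 9.38 ± 0.603 and Slc26a5 with 8.31 ± 1.49 followed, and the replicates of these neighbours overlapped. Ikzf2 was lowest with an RPKM of 1.32 ± 0.203. The bundle protein stereocilin was therefore the most abundant of these transcripts per length and prestin one of the least, while both inner hair cell genes were high in a pool that also holds outer hair cells. In control non-hair cells the order of RPKM values was different, with Tbx2 first at 42.3 ± 5.66 (SD, n = 3), Ikzf2 next at 1.90 ± 0.0906, then Bcl11b at 0.896 ± 0.0223 and Insm1 at 0.502 ± 0.243. After gentamicin, the order in hair cells was that of control hair cells, from Strc at 173 ± 28.8 (SD, n = 3) through Tbx2 at 73.1 ± 17.3 and Fgf8 at 39.2 ± 8.88 to Ikzf2 at 1.14 ± 0.311, and the replicates of Bcl11b (12.4 ± 0.630) and Slc26a5 (7.98 ± 1.47) no longer overlapped. Exon lengths are those of GENCODE M21, with the exons of all isoforms joined.

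After 3 h of gentamicin, Fgf8 was the gene of the 7 that met the criteria in hair cells, and it fell. This is 1 of 7 genes, beside 27.5% of all tested genes called in either direction, 12.7% up and 14.8% down, so the number of calls among these genes is not above the background. Over all genes 2037 rose and 2381 fell, and this split turned to 2775 up and 1591 down under scaling by total reads.

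Normalized read numbers of Fgf8 were 94.6, 84.5 and 101 in control hair cells and 44.4, 46.5 and 65.1 after gentamicin. The 3 treated replicates were all below the 3 controls, with replicate 3 the highest in both groups. The mean fell from 93.4 ± 8.45 (SD, n = 3) to 52.0 ± 11.4 (SD, n = 3), which is 1.82-fold lower on the log2 scale fitted by limma (log2 change -0.86, standard error 0.15, 95% interval -1.19 to -0.54, adjusted p = 0.00141). Its call held under each alternative tried, over which the log2 change ranged from -1.04 to -0.76.

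Tbx2 did not meet the criteria. Its values were 396, 373 and 447 in control hair cells and 292, 189 and 287 after gentamicin, and the groups do not overlap, with treated replicate 2 the lowest. The log2 difference was -0.69 (standard error 0.25, 95% interval -1.23 to -0.15, limma adjusted p = 0.0519). With the 2 hair cell groups fitted alone it met the criteria (limma adjusted p = 0.0147).

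None of the 5 outer hair cell genes met the criteria by limma, and 1 of them, Bcl11b, had an unadjusted p below 0.05. Slc26a5 had 22.2, 31.5 and 28.2 in control hair cells and 21.2, 30.0 and 22.8 after gentamicin, so the replicates overlapped (log2 difference -0.15, 95% interval -0.50 to 0.21). Strc had 1174, 1273 and 1193 against 991, 1248 and 890. The Strc groups also overlapped, through treated replicate 2, and the log2 difference of -0.23 has a 95% interval from -0.96 to 0.50. A fall of prestin or stereocilin mRNA as large as that of Fgf8 lies outside the interval for Slc26a5 and inside the interval for Strc.

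Among the transcription factors, Insm1 overlapped between the groups, with 98.9, 90.3 and 88.4 against 91.6, 90.2 and 84.1 and a log2 difference of -0.06 (95% interval -0.65 to 0.53). Bcl11b had 84.4, 79.7 and 74.3 in control hair cells and 92.5, 104 and 96.4 after gentamicin, which do not overlap. Its log2 difference was 0.30 (standard error 0.12, 95% interval 0.03 to 0.57, limma adjusted p = 0.0834). It met the criteria under scaling by total reads (limma adjusted p = 0.0263) and in the fit of the 2 hair cell groups alone (limma adjusted p = 0.0146). Ikzf2 had 14.0, 17.8 and 18.5 against 17.5, 12.9 and 10.8, groups that overlap, with a log2 difference of -0.31 (standard error 0.16, 95% interval -0.66 to 0.05, limma adjusted p = 0.170). Without treated replicate 1, the highest of its group, Ikzf2 met the criteria with a log2 change of -0.49 (limma adjusted p = 0.0251). Treated and control replicates of hair cells did not overlap for 3 of the 7 genes, Fgf8, Tbx2 and Bcl11b, beside 54.8% of all genes tested.

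In non-hair cells none of the 7 genes met the criteria, where 5.44% of all genes did (512 up and 363 down, or 633 up and 282 down when scaled by total reads). In the limma fit none of the 7 had an unadjusted p below 0.05 either. Tbx2 had 135, 160 and 174 in control non-hair cells and 124, 72.7 and 155 after gentamicin, with replicate 2 again the lowest of the treated group (log2 difference -0.47, 95% interval -1.01 to 0.07). Ikzf2 had 23.4 ± 0.960 (SD, n = 3) and 19.4 ± 0.644 (SD, n = 3), a log2 difference of -0.26 (95% interval -0.62 to 0.09), and although its replicates did not overlap, limma adjusted p was 0.428. Bcl11b differed by 0.02 and Insm1 by -0.19 on the log2 scale. Fgf8 was at 0, 1 and 1 reads in control non-hair cells and at 2, 2 and 4 after gentamicin, and Slc26a5 at 1 and 6 reads over the 3 replicates of each group. Strc had 12 reads in the control non-hair cells and 62 after gentamicin, of which 60 were in replicate 3, so for these 3 genes no change can be read in non-hair cells.

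The difference between the 2 responses was tested as an interaction and called at a limma adjusted p below 0.05. Among all genes tested, 13.4% were called. None of the 6 genes other than Fgf8 was called by limma, and 0 of them had an unadjusted p below 0.05. For Fgf8 the contrast was called at -0.96, but Fgf8 had at most 4 reads in a non-hair cell replicate, so this value restates its fall in hair cells and does not show that the responses differed. For Tbx2, which was well measured in both populations, the interaction was -0.21 with a 95% interval from -0.98 to 0.55.

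**Figure D2:**
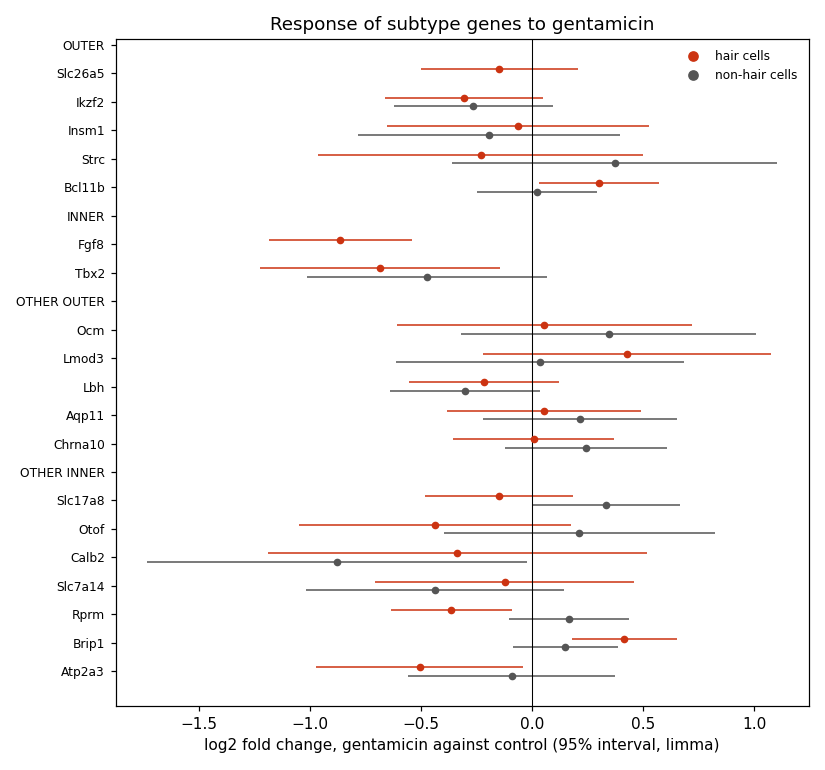
Log2 change after gentamicin (horizontal axis) with its 95% interval from limma, for hair cells and non-hair cells, for the 5 outer and 2 inner hair cell genes and for other genes of each subtype. The interval of Fgf8 in hair cells (-1.19 to -0.54) lies wholly below 0. Fgf8 and Slc26a5 are not drawn for non-hair cells, where they had at most 4 reads in a replicate. Strc is drawn there, but 60 of its 62 treated reads were in replicate 3, so no change can be read from its interval.

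Ratios between genes of the same replicate depend on how that replicate was scaled only through the added 1. The mean log2 normalized read number of the 5 outer hair cell genes minus that of the 2 inner hair cell genes was -1.29, -1.02 and -1.35 in control hair cells and -0.52, -0.14 and -0.95 after gentamicin. The treated replicates were all above the controls, with treated replicate 3 the nearest to them. The mean ratio was -1.22 ± 0.18 (SD, n = 3) in controls and -0.54 ± 0.41 (SD, n = 3) after gentamicin, a difference of 0.69 that is given as a description with no test. All 10 pairs of 1 outer and 1 inner gene had a higher mean ratio after gentamicin, from 0.38 for Ikzf2 over Tbx2 to 1.16 for Bcl11b over Fgf8. These pairs share genes, so they are not 10 separate measurements, and a lower Fgf8 or Tbx2 alone raises all of its pairs. Replicates of Bcl11b over Fgf8 were -0.16, -0.08 and -0.45 in controls and 1.06, 1.17 and 0.57 after gentamicin. Strc over Tbx2 changed little beside its spread, from 1.57, 1.77 and 1.42 to 1.76, 2.72 and 1.63.

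**Figure D3:**
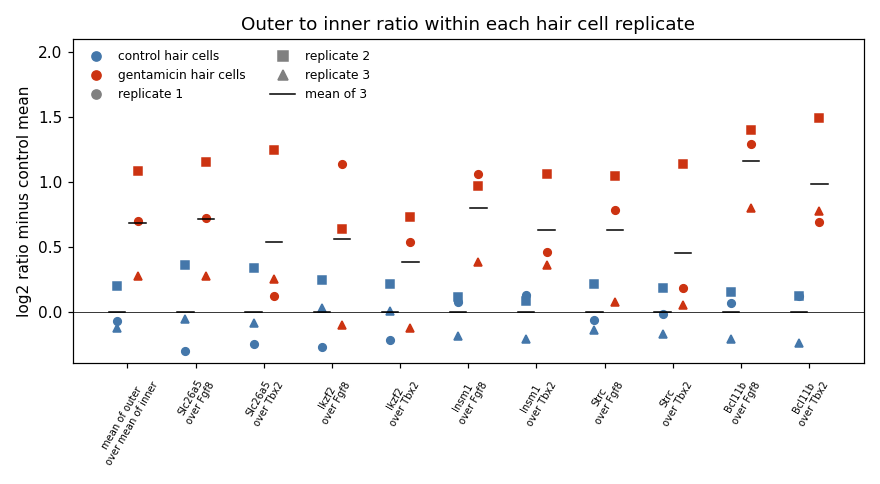
Log2 ratio of outer to inner hair cell genes within each hair cell replicate, minus the mean ratio of the controls, for the means of the 5 and 2 genes and for the 10 pairs, with lines at the mean of 3 replicates. All treated means lie above the control mean at 0, and treated replicate 3 lies near or among the controls in several pairs.

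Other genes of the 2 subtypes were read beside these. Of 6 other outer hair cell genes, 0 met the criteria in hair cells by limma (0 had an unadjusted p below 0.05 either), beside 27.5% of all genes tested. Their median log2 difference was 0.03 beside -0.09 over all genes tested. Ocm, a calcium buffer of outer hair cells, had 40.6, 62.6 and 69.9 in controls and 58.7, 94.1 and 36.0 after gentamicin. Lmod3, an actin regulator, had 128 ± 7.03 (SD, n = 3) against 181 ± 73.9 (SD, n = 3), where treated replicate 2 reached 265 and the other treated replicates were at 151 and 126. The log2 differences were 0.05 for Ocm, 0.43 for Lmod3, -0.22 for the transcription cofactor gene Lbh, 0.05 for the aquaporin gene Aqp11 and 0.01 for Chrna10, a subunit of the efferent acetylcholine receptor. Of the 6, 5 were higher in control hair cells than in control non-hair cells, and Aqp11 did not differ by the criteria (21.3 ± 1.12 against 23.6 ± 5.55, SD, n = 3).

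Of 7 other inner hair cell genes, 1 rose and none fell by the criteria in hair cells, beside 12.7% of all genes tested that rose and 14.8% that fell. Their median log2 difference was -0.34 beside -0.09 over all genes tested. The gene that rose was Brip1, whose product is a DNA helicase of DNA repair, from 50.7, 43.0 and 58.6 in controls to 69.1, 65.02 and 67.5 (log2 change 0.41, standard error 0.11, limma adjusted p = 0.0132). The log2 differences of the 6 others were all below 0, and none of them met the criteria. Otof, which encodes otoferlin, the calcium sensor of synaptic release, had 3844, 3823 and 4030 in controls and 2574, 3171 and 2923 after gentamicin (log2 difference -0.44, 95% interval -1.05 to 0.17). Atp2a3, a calcium pump of the endoplasmic reticulum, had 585, 588 and 717 against 408, 555 and 380 (log2 difference -0.51, limma adjusted p = 0.0874). Rprm, which encodes reprimo, had 613, 608 and 697 against 478, 538 and 474, with a log2 difference of -0.36 (limma adjusted p = 0.0425) at an unadjusted p of 0.0133, above the limit of 0.01. Calb2 (calretinin) differed by -0.34, Slc17a8 (the vesicular glutamate transporter of inner hair cells) by -0.15 and Slc7a14 (a lysosomal transporter) by -0.12 on the log2 scale. Replicates of the 2 hair cell groups did not overlap for 4 of these 7 genes and for 1 of the 6 other outer hair cell genes, beside the 54.8% of all genes.

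Genes related by sequence or by function were counted in the same fit. Of 22 paralogs of the 7 genes, 21 were listed and 19 tested, and in hair cells 3 rose and 2 fell, a share near the 27.5% called among all genes. Bcl11a, the paralog of Bcl11b, rose from 83.5 ± 4.15 (SD, n = 3) to 126 ± 6.89 (SD, n = 3), a log2 change of 0.59. Of the Ikaros family, Ikzf5 rose from 45.4 ± 1.41 to 70.5 ± 4.53 (SD, n = 3) and Ikzf3 from 1.67 ± 0.146 to 2.63 ± 0.0317 (SD, n = 3), log2 changes of 0.63 and 0.65. Slc26a2, a sulfate transporter, fell from 9.91 ± 0.302 to 5.46 ± 0.0507 (SD, n = 3), a log2 change of -0.86, and Slc26a11, named after its values were seen, also fell (log2 change -0.51). The limma adjusted p of these 5 genes lay between 1.11e-04 and 0.0175. Whether Bcl11a and Bcl11b, or the Ikaros genes, differed in their response was not tested.

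Insm1 and Bcl11b bind co-repressor complexes, and 16 genes for the Lsd1 co-repressor and the NuRD complex were counted. In hair cells 1 of them rose and 2 fell, beside 12.7% of all genes tested that rose and 14.8% that fell. Mta2, a NuRD subunit, rose with a log2 change of 0.37, and Hmg20b, a DNA-binding partner of Lsd1, was among those that fell, with a log2 change of -0.30. The median of the 16 genes was -0.01 beside -0.09 for all genes.

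Fgf8 signals through Fgf receptors and induces feedback genes, and of 13 such genes 2 rose and 4 fell in hair cells, with a median log2 difference of -0.27. Over all genes tested 12.7% rose and 14.8% fell, with a median of -0.09. The 4 that fell were the receptor gene Fgfr1, the feedback inhibitors Spry4 and Dusp6, and the transcription factor gene Etv4. Spry4 fell from 5.69, 9.55 and 6.07 to 2.73, 3.09 and 3.32 (log2 change -1.19, standard error 0.22, limma adjusted p = 0.00214). Dusp6 fell from 35.0, 49.1 and 41.0 to 16.8, 17.4 and 27.2 (log2 change -1.05), Etv4 from 6.25, 11.7 and 7.08 to 3.97, 3.18 and 5.46 (log2 change -0.97) and Fgfr1 from 89.4 ± 10.7 to 60.3 ± 7.83 (SD, n = 3, log2 change -0.57). Spred1 and Etv5, named after their values were seen, rose with log2 changes of 0.42 and 0.28. All 4 genes that fell were lower in control hair cells than in control non-hair cells, with log2 differences from -3.81 to -1.83, and the part of reads from other cells in their values was not tested. In non-hair cells 1 of the 13 fell, Etv5 (log2 change -0.34), and none rose. Fgfr3, the receptor on pillar cells, had 225 in control hair cells and 189 after gentamicin on average (log2 difference -0.27, limma adjusted p = 0.542).

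Stereocilin attaches outer hair cell bundles to the tectorial membrane, and 7 genes listed for its partners and tectorial membrane proteins were read. Of these 6 were tested and 1 fell in hair cells, beside 14.8% of all genes that fell. Their median log2 difference was -0.49 beside -0.09 for all genes. The gene that fell was Tubb4b, a tubulin, which fell from 342 ± 16.9 to 234 ± 38.4 (SD, n = 3), a log2 change of -0.56 (limma adjusted p = 0.00250). Tubb4b also had a mean normalized read number of 192 in control non-hair cells, where Strc was near the floor. Its link to stereocilin was not tested. Otog, which encodes otogelin, and Pkhd1l1, which encodes a stereocilia coat protein, were named after their values were seen and did not meet the criteria, with larger log2 differences of -0.91 (limma adjusted p = 0.0945) and -0.75 (limma adjusted p = 0.0371). The tectorial membrane genes Tecta, Tectb and Otogl were also named after their values were seen. None of them, nor Otog, was called higher in control hair cells than in control non-hair cells. In treated hair cells their lowest values were those of replicate 2 (Tecta 578, Tectb 271, Otog 251 and Otogl 25.6). The part of reads from other cells in these values was not tested.

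Supporting cell markers were read in the same replicates. Of 10 supporting cell markers, 3 fell in hair cells after gentamicin (Hes5 with a log2 change of -2.02, Hey1 with -1.32 and Lfng with -1.17). None rose by the criteria, and the median log2 difference was -0.71. Over all genes 14.8% fell, with a median of -0.09. The markers did not all move alike. Hey2 went from 19.3 ± 1.37 to 24.9 ± 0.963 (SD, n = 3), a log2 difference of 0.37 without a call, and its groups do not overlap. Fgfr3 differed by -0.27 with groups that overlap. The summed normalized read number of the 10 markers, with the added 1 taken off each gene, was 1665 to 1926 in control hair cells. It was 825 to 1359 in treated hair cells, 1101 to 1561 in control non-hair cells and 733 to 1277 in treated non-hair cells. Jag1, S100a1 and Lfng, with means of 473, 310 and 228 in control hair cells, were called higher there than in control non-hair cells. The sum was also higher there, so it does not measure the content of supporting cells. The lowest sum of each treated population was in replicate 2, which also had the lowest Tbx2 of its population (189 in hair cells and 72.7 in non-hair cells). The lowest Fgf8 values of treated hair cells were 44.4 in replicate 1, at a sum of 1154, and 46.5 in replicate 2, at a sum of 825. The part of supporting cells in the values of Tbx2 and Fgf8 was not tested.

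**Figure D4:**
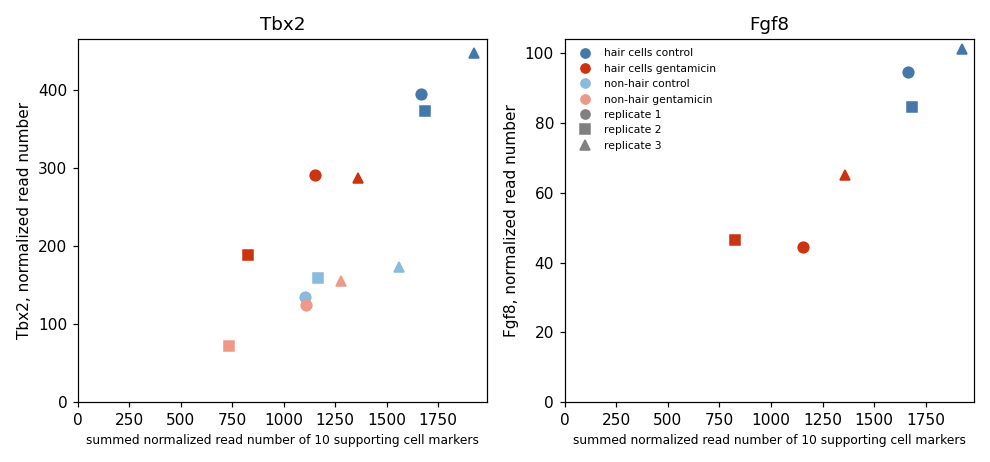
Normalized read number of Tbx2 in all 12 replicates and of Fgf8 in the 6 hair cell replicates (vertical axes) against the summed normalized read number of 10 supporting cell markers with the added 1 taken off (horizontal axes). Replicate 2 after gentamicin lies lowest for Tbx2 in both populations (189 and 72.7), where the marker sums are lowest too (825 and 733). The sum is higher in control hair cells than in control non-hair cells, so it does not measure the content of supporting cells.

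Markers of other cells were lower in treated than in control hair cells in part. The counts of calls given here stand beside 12.7% of all genes tested that rose and 14.8% that fell in hair cells. In non-hair cells 5.44% of all genes were called in either direction. Mesenchyme markers summed to 247 to 530 in control hair cells and 169 to 213 after gentamicin, where 3 of 7 fell, against 5647 to 7173 in control non-hair cells and 6325 to 9651 after gentamicin. Endothelial markers summed to 12.9 to 25.1 and 6.18 to 11.0 in hair cells (1 of 5 fell) against 268 to 324 and 297 to 402 in non-hair cells. Schwann cell and melanocyte markers summed to 137 to 171 and 59.8 to 114 in hair cells, where 1 of 4 tested fell, and to 371 to 516 and 361 to 468 in non-hair cells, where 1 fell. Neuron markers had 0 of 7 called in either population, with sums of 1165 to 1329 and 1125 to 1259 in hair cells and 635 to 1573 and 317 to 1158 in non-hair cells. Of 4 tested immune cell markers 1 rose in hair cells, the lysosomal gene Cd68, while the T cell markers Cd3e, Cd3d and Cd3g lay at mean normalized read numbers of at most 1.22 in every group. The 7 immune cell markers summed to 2.36 to 3.14 in control hair cells, 12.03 to 17.98 after gentamicin, 22.5 to 38.7 in control non-hair cells and 25.4 to 34.5 after gentamicin. Most of the higher sum in treated hair cells was Cd68, at a mean of 2.43 in controls and 14.1 after gentamicin, while Ptprc (1.35 and 1.34) and C1qa (1.35 and 1.42) stayed near the floor. Hair cell markers had 0 of 8 called in either population, with sums of 7611 to 7948 in control hair cells, 7078 to 7625 after gentamicin, 194 to 230 in control non-hair cells and 208 to 292 after gentamicin. The part of these cells in the values of the subtype genes was not tested.

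Patterns most like those of the 7 genes were sought by Pearson's r of log2 normalized read numbers among 13819 genes, as a description without a test. Over all 12 replicates, which is mostly a comparison of the 2 sorted populations, the nearest genes were Lrrc43 and Gm14635 to Slc26a5 (r = 0.999 and 0.998), Fcrlb and Tmem255b to Strc (both 0.999), and Lhfpl5 and Myo7a to Insm1 (both 0.999). Bcl11b was nearest to Lrguk and Nmnat3 (both 0.998), and Fgf8 to Prkx and Gm8765 (0.999 and 0.998). Tbx2 had looser neighbours, Slc22a3 and Otol1 (0.984 and 0.973), and Ikzf2 the loosest, Zfp940 and Pisd-ps1 (0.946 and 0.936). Slc22a3 shared the low treated replicates of Tbx2, with 55.9, 24.5 and 47.7 after gentamicin in hair cells against 80.5, 67.2 and 89.5 in controls. Otol1, which encodes an extracellular matrix protein of the inner ear, had 67.0, 30.1 and 47.3 after gentamicin against 82.9, 77.1 and 102.

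Over the 6 hair cell replicates alone, a high r is easily reached, because few points are compared and they fall into 2 treatment groups. The nearest genes were Pik3c2b and Cnot1 for Fgf8 (r = 0.9997 and 0.9967), Slc35a1 and Vill for Tbx2 (both 0.999), Ccdc134 and Ikbkap for Bcl11b (both 0.998), and Dnajb5 and Napb for Strc (0.995 and 0.992). They were S100a10 and Stt3a for Ikzf2 (0.988 and 0.986), Mmp17 and 2300009A05Rik for Insm1 (0.976 and 0.968), and Ptprb and Nrg1 for Slc26a5 (0.9752 and 0.9728). Pik3c2b, a phosphoinositide kinase gene, had 58.7, 52.9 and 60.8 in control hair cells and 31.4, 32.8 and 43.0 after gentamicin, close in shape to Fgf8, but unlike Fgf8 it was also present in non-hair cells at 31.9 to 40.2. None of the genes nearest over the hair cell replicates was also among the nearest over all 12. Only the 2 nearest genes were kept each time, so nothing is concluded from this about the 2 kinds of likeness.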

How the data were processed

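Gene expression was measured by poly(A) RNA sequencing of FACS-sorted mouse cochlear cells in 12 libraries, 3 replicates in each of 4 groups. The authors trimmed 50 bp single-end reads at a quality score of 25, aligned them to mm10 with TopHat2 in PartekFlow and deposited 1 normalized read score per gene and replicate. The methods speak of RPKM, but the deposited scores showed no division by gene length and are treated as scaled reads with 1 added. The gene annotation, the scaling factor and the use of strand are not given in the sources used here. Reads were recovered as the score minus 1, divided by the score of 1 read. This gave whole numbers (within 0.1) for 83.3% to 84.5% of values up to 20 reads, too few to treat the recovered reads as exact counts. No count model was therefore fitted for the log2 changes. The exact intervals on ratios of reads used recovered reads summed over replicates and rounded to whole numbers. Recovered reads on genes numbered 22.4 M to 28.2 M per replicate, and intervals on reads cover counting error only.

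Log2 scores of genes with at least 100 recovered reads were fitted with limma 3.58.1 (R 4.3.3), with a cell-means model of the 4 groups and empirical Bayes moderation with a trend. This fit stands in for PartekFlow's gene specific analysis. Tables were handled in Python 3.11.15, and exact intervals came from scipy 1.17.1. Gene positions and exon lengths came from GENCODE M21 and promoters from RefSeq on GRCm38.p6. The text names the 7 subtype genes, all genes of the lists of other outer and other inner hair cell genes, and of the 4 lists of relatives and partners the called genes with the largest changes, at most 4 a list. Of the genes this rule takes, 2 are not reported here. It adds the 2 genes nearest to each of the 7 by Pearson's r, among genes with a mean score of at least 5 in their highest group. The 7 genes and the lists were chosen with earlier results of these data known. Fgfr3 is in both the Fgf8 list and the supporting cell list.

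Replicate numbers come from column headers only. In the controls, same-numbered hair and non-hair cell libraries deviated together (r = 0.216, 0.316 and 0.200). In the treated groups the same correlations were 0.377, -0.0386 and -0.0179. The reported fit is unpaired and does not use the number. As an alternative, the number as a block left all 7 calls between the control populations. Alternatives were 2 other scalings, an offset of 0.1, no minimum of reads and one of 1000, each replicate left out, the replicate block, fits of the 2 groups compared, and other thresholds. The procedure was tested on simulated data.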

Additional observations from a re-analysis of the deposited data

Results flagged for a closer look

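The limma interaction contrast of Fgf8, its response in hair cells minus that in non-hair cells, was -0.96 on the log2 scale and passed the threshold. Fgf8 fell in hair cells, where all 3 treated replicates (44.4 to 65.1) were below all 3 controls (84.5 to 101). In non-hair cells it had 2 reads over the 3 controls and 8 over the 3 treated replicates, too few to measure a response. The contrast therefore restates the fall in hair cells and does not show that the 2 responses differed. No group held the 4 or more samples that the search for outlying samples needs.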

How the results depend on the processing

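Over the 7 genes and the alternatives tried, 432 of 441 values kept their side of the threshold, 5 were newly called and 4 lost a call. With a call in either fit, 0 values changed direction. A value without a call counts as kept even where its sign changed. Insm1 in hair cells, for example, went from -0.06 as reported to 0.03 under scaling by total reads. In hair cells, 1 of the 7 genes met the criteria as reported. The number was 2 with reads scaled by each replicate's total (Bcl11b added), 2 with the replicate block (Tbx2 added, limma adjusted p = 0.0186) and 3 with the 2 hair cell groups fitted alone (Bcl11b and Tbx2 added). With 1 replicate left out it was 1 to 2, and the added gene was Ikzf2 without treated hair cell replicate 1. Same-numbered treated and control hair cells deviated together only weakly (r = 0.0369, 0.0523 and 0.0369), and control replicate 3 correlated more with treated replicate 1, so the number is not taken as a pairing there. In non-hair cells the correlations were 0.208, -0.232 and 0.683. The block changed no other call of the 7 genes. Between the control populations 6 to 7 genes were called with 1 replicate left out, and Ikzf2 also lost its call at a fold above 1.5 and at an adjusted p below 0.01. The outer to inner log2 ratio rose by 0.69 on average as reported and by 1.16 for Bcl11b over Fgf8, and it was 0.69 with an offset of 0.1. Scaling by the median of ratios moved the median of all genes between the control populations by 0.11 on the log2 scale.

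Counts over all genes moved more. Genes called in hair cells went from 4418 to 2074 at a fold above 1.5. In non-hair cells they went from 875 to 219 at that fold, to 55 at an adjusted p below 0.05, to 383 with the 2 groups fitted alone, and to between 411 and 1570 with 1 replicate left out. Genes called for the interaction went from 2158 to as few as 1163 without control hair cell replicate 2. The cause was not tested. Prestin, stereocilin and Fgf8 reads in non-hair cells were too few for a change to be measured, and with 3 replicates the 95% intervals of Strc, Insm1 and Tbx2 in hair cells span more than 1 on the log2 scale.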
